A study of Homo sapiens with 12 samples.

Results

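The shared resistance effect is the difference between palbociclib-resistant and parental melanoma cells that A375 and CHL1 have in common. It was read from all 12 of the 12 RNA-seq libraries of the study, as the state term of a model in which the cell line is a block, over the genes listed in both count tables. The study asked which genes change when melanoma cells acquire resistance to palbociclib, a drug that blocks the cell cycle kinases CDK4 and CDK6. A375 and CHL1 are human melanoma cell lines. The resistant group of A375, named A375AR991, had been grown in rising palbociclib for 7 months, and the resistant group of CHL1, named CHL1AR991, for 3 months, after which both were kept in medium with 4 µM of the drug. The parental A375 and CHL1 groups were grown in the same medium without palbociclib. Before RNA extraction all cells had 72 h without drug, so neither state had inhibitor in the medium at that point. For the resistant cells only, these 72 h followed withdrawal of the drug. Effects of withdrawal cannot be told apart from those of the resistant state. Each group had 3 libraries. Each resistant derivative is a single selected population, and the labels do not say whether the 3 libraries of a group came from separate cultures. All p-values therefore rest on the spread between these libraries, which may be technical. The joint model over both lines gives them the same change. Its p-values for the state term therefore also take in any difference between the lines in that change. A large p-value there can come from either source.

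Cyclin D binds CDK4 and CDK6, and the active kinases phosphorylate the retinoblastoma protein RB1, which then releases E2F transcription factors and lets the cell enter S phase. Palbociclib blocks this step in cells that still have RB1. Cyclin E with CDK2 can phosphorylate RB1 without CDK4 or CDK6, while CDKN1A and CDKN1B restrain CDK2. Later in the cycle a different set of genes, read from promoters bound by the MuvB complex, prepares mitosis.

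Libraries held 25398920 to 29812686 counts, and 3 counts corresponded to 0.101 to 0.118 CPM, the usual count scaled to library size. Intervals and floors of this kind cover counting error only. Unless marked otherwise, levels below are CPM after TMM scaling, a scaling factor per library. They are compared between libraries for the same gene only, since they are not divided by gene length. Among 8 melanocyte markers, taken before TMM scaling, MITF, SOX10 and S100B were present in both lines. PMEL and MLANA averaged at most 1.03 CPM in every group and TYR at most 0.506 CPM. DCT averaged 18.5 CPM in resistant and 42.7 CPM in parental CHL1, against 0.414 and 0.091 CPM in resistant and parental A375. TYRP1 averaged 1.82 CPM in resistant and 0.217 CPM in parental A375, and 1.22 and 1.16 CPM in resistant and parental CHL1. Line identity took up 89.7% of the variance of log2 CPM. Of what remained, 29.6% lay with the difference between states averaged over the lines. A further 29.1% lay with the departure of the lines from that average, and 41.3% within groups. A change confined to 1 line adds equally to the average and to the departure, so the 29.6% is not all common change.

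The joint fit found many genes with modest changes. Of 19241 genes tested with edgeR's quasi-likelihood test, 1323 (6.88%) were higher and 1648 (8.57%) lower in resistant libraries at a Benjamini-Hochberg adjusted p below 0.05, which is what "called" means below. All adjusted p-values below are edgeR's, over all genes tested. Without A375 resistant replicate 3 the number of lower genes was 1096. A call in the joint fit did not by itself mean that both lines moved. Of the 2971 called genes, 637 (21.4%) were also called in the same direction in each line's own fit, 1436 (48.3%) in A375 alone and 721 (24.3%) in CHL1 alone. A further 175 (5.89%) were called in neither line's own fit, and 2 were called in opposite directions. In 601 of the called genes (20.2%) 1 line had less than 1 CPM in both states. The interaction term, which tests whether the change differs between the lines, was called for 4536 genes (23.6%), 962 of them among the 2971.

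A stricter reading asked that all 3 resistant libraries lie on the same side of all 3 parental libraries in both lines. Among all tested genes this held upwards for 749 (3.89%) and downwards for 859 (4.46%), while 1395 (7.25%) were separated in both lines in opposite directions. Genes both called and separated numbered 634 higher (3.3%) and 766 lower (3.98%). Most of these changes were small. With a change under 2-fold in each line there were 498 higher genes (2.59%), with a median of 1.21-fold, and 612 lower genes (3.18%), with a median of 1.26-fold. Under 1.5-fold in the joint fit were 93.2% of the higher and 89.9% of the lower ones. These 1110 genes are called small shared changes below. At least 2-fold in both lines there were 12 higher and 18 lower genes.

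**Figure D1:**
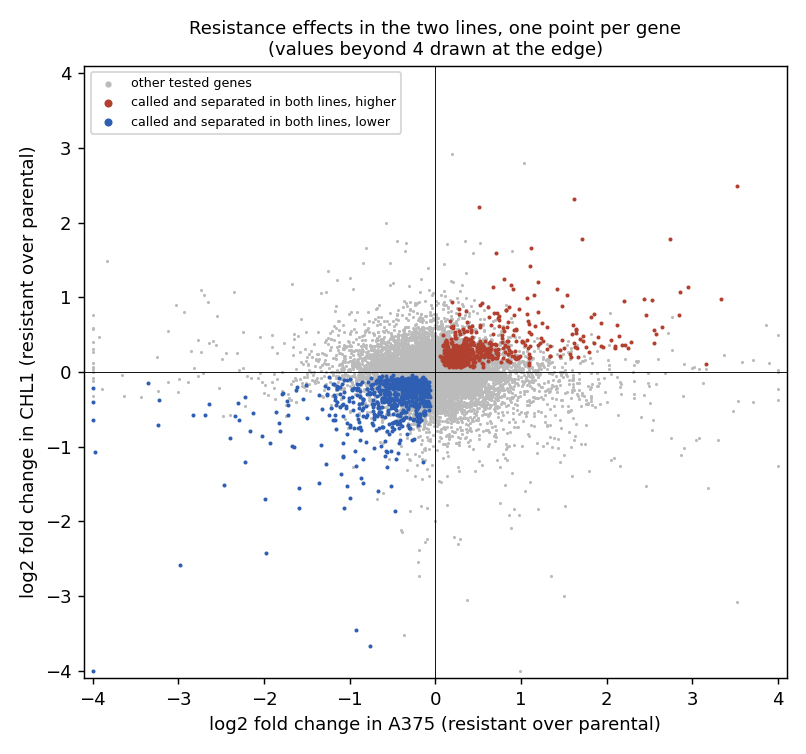
Each point is a gene tested in both line fits, at its log2 fold change (resistant over parental) in A375 on the x axis and in CHL1 on the y axis, with values beyond 4 drawn at the edge. Red and blue points are the called genes whose libraries were separated upwards or downwards in both lines, and the grey cloud of the other genes shows no slope (Pearson's r over all 15975 genes is 0.024).

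Across genes, the change in A375 said little about the change in CHL1. Over the 15975 genes tested in both line fits Pearson's r was 0.024 and Spearman's rho 0.031, as a description across genes, which are not independent replicates. Changes had the same sign for 51.7% of genes, and for 52.1% of the 8749 genes with at least 10 CPM in all 4 groups. The line fits share no library, so their calls can be set side by side. In its own fit A375 called 2374 genes higher (13.3%) and 2625 lower (14.7%), and CHL1 1629 higher (9.5%) and 1976 lower (11.5%). Over the genes tested in both fits these shares were 13.0% and 14.6% in A375 and 9.64% and 11.4% in CHL1. Both lines called 281 genes higher (1.76%) and 364 lower (2.28%), and 568 (3.56%) were called in opposite directions, 306 (1.92%) of them higher in A375 and 262 (1.64%) higher in CHL1. Of the genes higher in resistant A375, 13.5% were higher and 14.7% lower in resistant CHL1. Of the genes lower in resistant A375, 15.6% were lower and 11.2% higher in resistant CHL1. For changes above 2-fold the order of these shares varied. Of the 463 such genes higher in A375, 16.0% were higher and 17.1% lower in CHL1, and of the 352 lower in A375, 19.9% were lower and 13.1% higher in CHL1. Of the 55 such genes higher in CHL1, 30.9% were higher and 25.5% lower in A375, and of the 126 lower in CHL1, 27.0% were lower and 29.4% higher in A375.

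**Figure D2:**
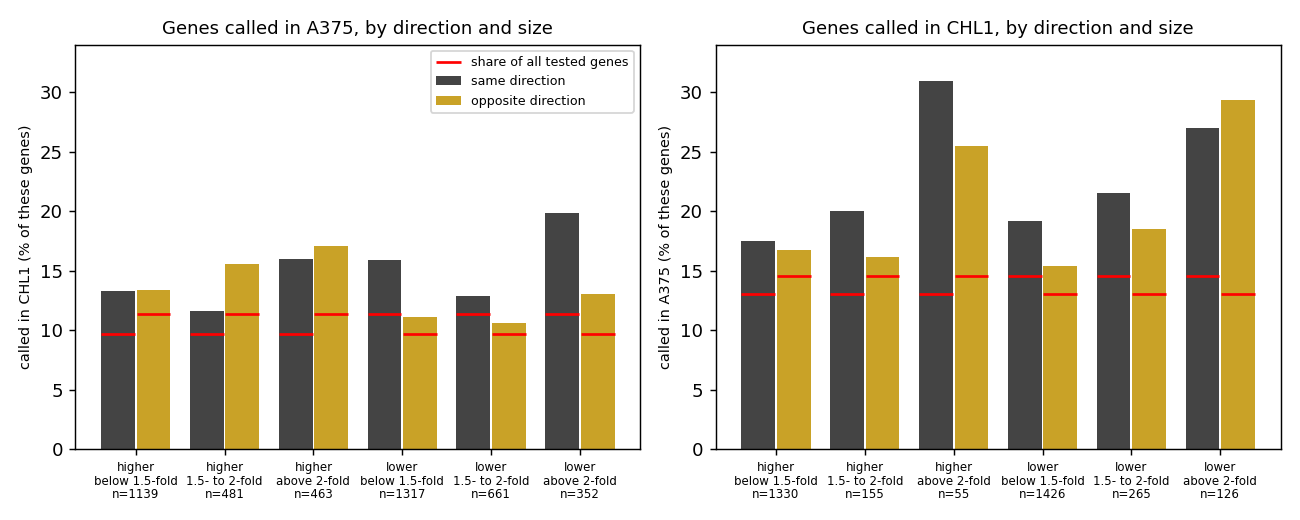
Bars give the percentage of genes called in A375 (left) or in CHL1 (right) that were called in the other line in the same (black) or the opposite (yellow) direction, by direction and size of the change, with n genes in each class. Red lines give the share of all genes called that way in the other line, and bars of both colours mostly stand above them.

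The genes named here stand for the small shared changes, 10 of each direction taken by smallest p among those with at least 10 CPM in each line and no called interaction. The higher genes included secreted and cell-surface proteins. CLU had 22.9, 25.9 and 26.2 CPM in resistant A375 libraries, against 13.4, 14.5 and 13.4 CPM in parental A375 libraries, and 57.8, 67.1 and 67.7 CPM in resistant CHL1 libraries, against 38.6, 32.2 and 35.1 CPM in parental CHL1 libraries. CLU encodes clusterin, a secreted chaperone, and its resistant libraries lay above the parental ones in both lines. CLU had a joint log2 fold change of 0.86 ± 0.063 (SE; edgeR adjusted p = 4.74e-06), with 0.86 in A375 and 0.86 in CHL1. PLAT had 132, 113 and 126 CPM in resistant A375 libraries, against 94.8, 88.9 and 74.5 CPM in parental A375 libraries, and 1118, 1216 and 1118 CPM in resistant CHL1 libraries, against 779, 732 and 724 CPM in parental CHL1 libraries. PLAT is tissue plasminogen activator, and again no library overlapped between states within a line. PLAT had a joint log2 fold change of 0.58 ± 0.061 (SE; edgeR adjusted p = 8.27e-05), with 0.52 in A375 and 0.63 in CHL1. The semaphorin SEMA3C, a secreted guidance cue, rose by 0.75 on the log2 scale and the junctional adhesion molecule JAM3 by 0.35.

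SHC1 had 445, 451 and 457 CPM in resistant A375 libraries, against 358, 359 and 365 CPM in parental A375 libraries, and 161, 173 and 166 CPM in resistant CHL1 libraries, against 133, 129.9 and 131 CPM in parental CHL1 libraries. SHC1 is the adaptor that links activated receptor tyrosine kinases to RAS, and its libraries varied little within each group. SHC1 had a joint log2 fold change of 0.33 ± 0.031 (SE; edgeR adjusted p = 3.65e-05), with 0.32 in A375 and 0.35 in CHL1. Replication genes were in the set: ORC3, a subunit of the origin recognition complex (0.48), and HLTF, a translocase that remodels stalled replication forks (0.42). HSPA13, a relative of the HSP70 chaperones, rose by 0.37. The remaining genes, TUBB2A (0.45), a beta-tubulin, and PCDHA6 (0.72), a clustered protocadherin, have near-identical copies or shared exons in their families, so their counts are uncertain.

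**Figure D3:**
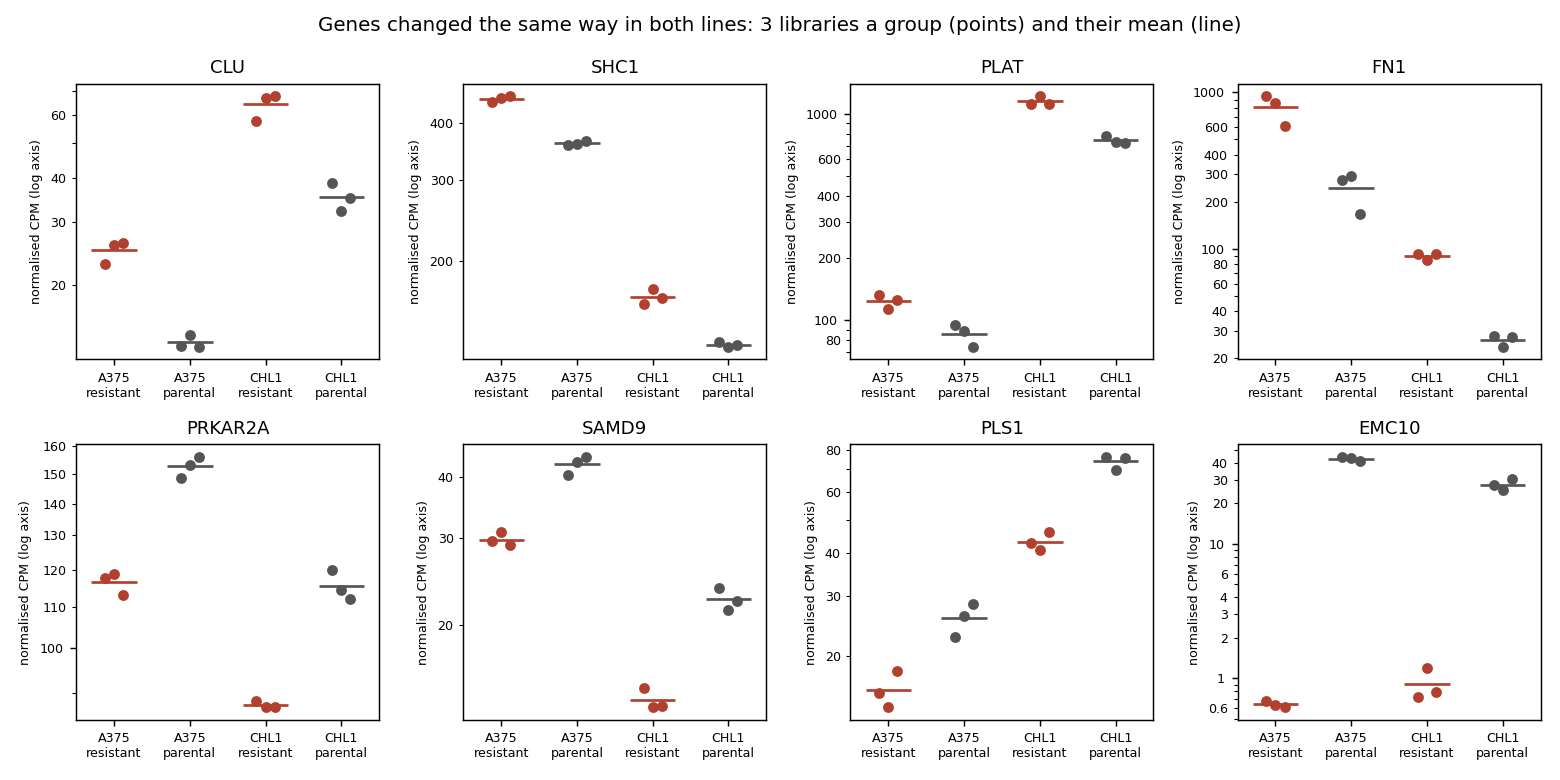
Normalised CPM on a log axis for 8 genes, in resistant and parental A375 and then resistant and parental CHL1, with a point for each of the 3 libraries of a group and a line at their mean. In the upper row all resistant libraries lie above the parental ones of the same line, as for FN1, and in the lower row below them, as for EMC10.

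Among the small lower genes was PRKAR2A, a regulatory subunit of protein kinase A. PRKAR2A had 118, 119 and 113 CPM in resistant A375 libraries, against 149, 153 and 156 CPM in parental A375 libraries, and 88.5, 87.2 and 87.1 CPM in resistant CHL1 libraries, against 120.0, 114 and 112 CPM in parental CHL1 libraries. Resistant libraries lay below the parental ones in both lines, by about the same factor. PRKAR2A had a joint log2 fold change of -0.39 ± 0.033 (SE; edgeR adjusted p = 1.45e-05), with -0.39 in A375 and -0.40 in CHL1. SAMD9 had 29.6, 30.8 and 29.0 CPM in resistant A375 libraries, against 40.3, 42.9 and 43.9 CPM in parental A375 libraries, and 14.9, 13.6 and 13.7 CPM in resistant CHL1 libraries, against 23.7, 21.5 and 22.4 CPM in parental CHL1 libraries. SAMD9 is an interferon-inducible growth suppressor, and it was lower in every resistant library. SAMD9 had a joint log2 fold change of -0.59 ± 0.054 (SE; edgeR adjusted p = 3.42e-05), with -0.51 in A375 and -0.68 in CHL1. IMPDH2, which makes guanine nucleotides, fell by 0.34 on the log2 scale, and RIOX2, a ribosomal oxygenase, by 0.64. PLS1, an actin-bundling plastin, fell by 0.74, and EDEM1, which sends misfolded glycoproteins to degradation, by 0.38. APPL1, an endosomal adaptor, fell by 0.38. TDRD7, a component of RNA granules, fell by 0.70 and NIPSNAP3A by 0.68.

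Of these 10 lower genes, RIOX2, PRKAR2A, PLS1, EDEM1, IMPDH2 and APPL1 lie on chromosome 3, whose genes were lower as a group in resistant CHL1. The median log2 fold change of the 977 tested genes of chromosome 3 was -0.32 in CHL1 and -0.0039 in A375, and 26.1% of them were called lower. On chromosome 13 the medians were -0.33 in A375 and -0.092 in CHL1, and 115 of 349 genes (33.0%) were called lower. The 20 nearest expressed protein-coding genes around a gene give the same picture locally. A median shift of at least 0.2 in the gene's own direction, in either line, was seen around 263 of the 605 small lower genes with known neighbours (43.5%), against 12.9% of all genes for that direction. Of 492 small higher genes it was seen around 41 (8.33%), against 5.03% of all genes. The part of shifted neighbourhoods in the lower calls was not tested, and without such genes the small lower count is 349, against 457 for the small higher genes. Of the named genes SAMD9, NIPSNAP3A and TDRD7 had no such neighbourhood, while the higher genes HSPA13 and PCDHA6 had one in A375 (0.22 and 0.20).

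**Figure D4:**
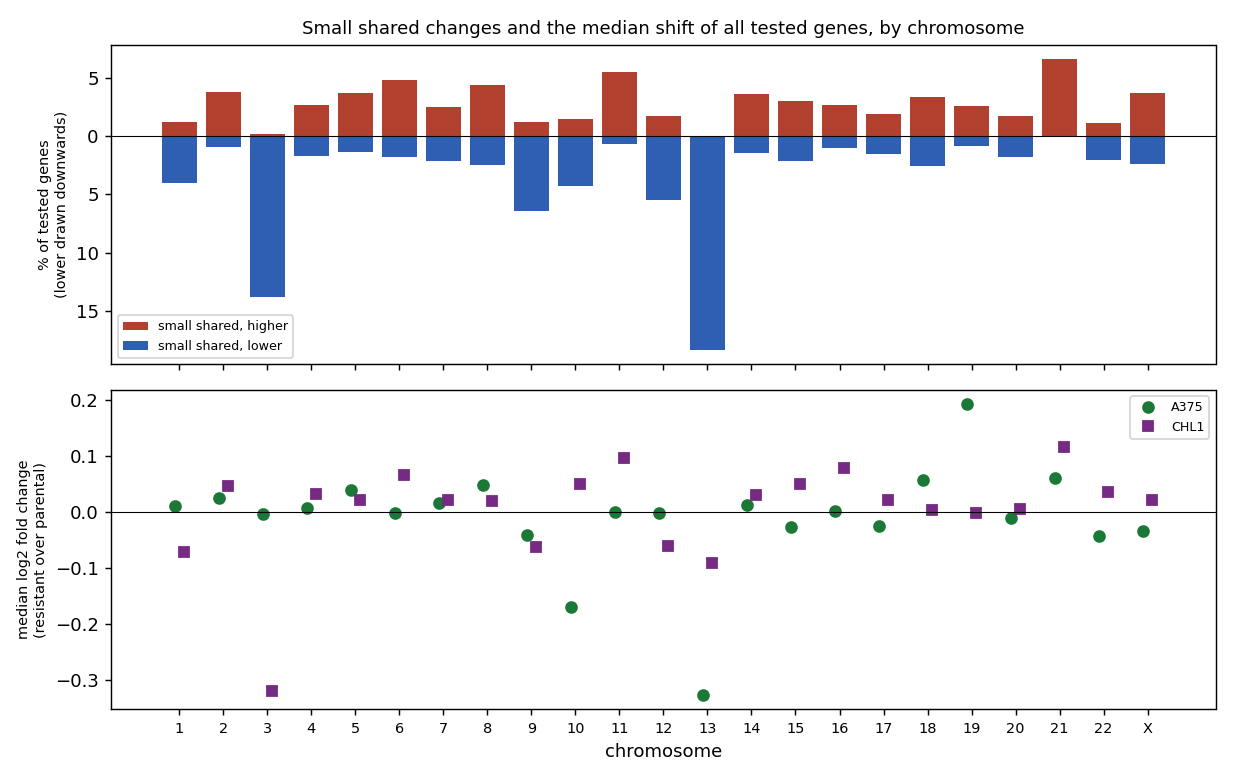
Upper panel, the percentage of tested genes per chromosome that were small shared changes, higher upwards and lower downwards. Lower panel, the median log2 fold change (resistant over parental) of all tested genes per chromosome in A375 (circles) and CHL1 (squares), with chromosome 13 low in A375 and chromosome 3 low in CHL1, the chromosomes with the most small lower genes.

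Larger shared changes were rare. EMC10, a subunit of the ER membrane complex that inserts proteins into the endoplasmic reticulum membrane, was nearly lost in both derivatives. EMC10 had 0.675, 0.638 and 0.610 CPM in resistant A375 libraries, against 44.4, 43.4 and 41.6 CPM in parental A375 libraries, and 0.730, 1.19 and 0.799 CPM in resistant CHL1 libraries, against 27.3, 25.3 and 30.3 CPM in parental CHL1 libraries. All resistant libraries were still above the level of 3 counts. EMC10 had a joint log2 fold change of -5.49 ± 0.18 (SE; edgeR adjusted p = 2.56e-09), with -6.06 in A375 and -4.91 in CHL1. The size differed between the lines (CHL1 minus A375 1.15, edgeR adjusted p = 0.00256). None of the other 9 subunits was called in the joint fit, and their log2 fold changes ran from -0.28 for MMGT1 to 0.12 for EMC9. MMGT1 was lower in A375 alone (-0.72, edgeR adjusted p = 0.000117), and EMC3, on a shifted stretch of chromosome 3, in CHL1 alone (-0.19).

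Fibronectin, FN1, a matrix glycoprotein that binds integrins, rose at least 2-fold in both lines. FN1 had 946, 861 and 606 CPM in resistant A375 libraries, against 276, 293 and 167 CPM in parental A375 libraries, and 92.3, 84.8 and 92.2 CPM in resistant CHL1 libraries, against 27.6, 23.8 and 27.4 CPM in parental CHL1 libraries. Groups did not overlap in either line, although resistant and parental A375 each had 1 library well below the other 2. FN1 had a joint log2 fold change of 1.74 ± 0.14 (SE; edgeR adjusted p = 7.04e-06), with 1.72 in A375 and 1.78 in CHL1. PALM3, a paralemmin, rose by 1.27 and PDZRN3, a PDZ-domain ubiquitin ligase, by 1.37. The 6 lower genes with at least 5 CPM held, beside EMC10, the doublecortin-like kinase DCLK1 (-2.21, on chromosome 13 with neighbours at -0.36 in A375), the desmosome-associated KAZN (-1.84), the integrin subunit ITGB7 (-1.71), the collagen chain COL5A1 (-1.40) and tissue factor F3 (-1.11). F3 had 5.23, 7.95 and 5.99 CPM in resistant A375 libraries, against 10.5, 15.3 and 14.9 CPM in parental A375 libraries, and 10.4, 9.09 and 10.6 CPM in resistant CHL1 libraries, against 26.1, 22.3 and 17.1 CPM in parental CHL1 libraries. F3 starts the coagulation cascade, and its resistant libraries lay below the parental ones in both lines.

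Pooling the lines added 175 calls that neither line gave alone, 97 higher and 78 lower, of which 120 were separated in both lines. Of the 175, 30 had not been tested in 1 of the line fits. The named ones changed little. SSRP1 (0.12), a subunit of the histone chaperone FACT, RTRAF (0.14), INTS4 (0.15) of the Integrator complex, CYB5B (0.14) and the translation termination factor GSPT1 (0.11) were higher. PCSK7 (-0.16), a proprotein convertase, the histone H3 lysine demethylase KDM6B (-0.19), the kinase UHMK1 (-0.12), UAP1L1 (-0.26) and the pseudogene RPL35P1 (-0.19), whose reads can come from RPL35, were lower. SSRP1 had 736, 752 and 715 CPM in resistant A375 libraries, against 652, 677 and 675 CPM in parental A375 libraries, and 484, 467 and 464 CPM in resistant CHL1 libraries, against 446, 433 and 433 CPM in parental CHL1 libraries. These calls are fragile. Leaving out 1 library ended the call in 1 to 8 of 12 refits for 8 of the 10 genes, and SSRP1 and RTRAF kept it in each refit.

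The drug's own pathway moved in part. Of 27 measured members of the CDK4/6-RB axis 5 were called higher (18.5%, against 6.88% of all genes) and 4 lower (14.8%, against 8.57%). Of these, 3 higher and 3 lower ones were separated in both lines. The A375 fit called 4 higher and 7 lower, where 13.3% and 14.7% of all genes were so called. The CHL1 fit called 9 higher and 4 lower, where 9.5% and 11.5% were. The interaction was called for 12 members, against 23.6% of all genes. CCNE1 had 29.8, 27.4 and 29.3 CPM in resistant A375 libraries, against 15.9, 19.2 and 17.7 CPM in parental A375 libraries, and 62.9, 66.0 and 64.9 CPM in resistant CHL1 libraries, against 21.4, 21.7 and 21.0 CPM in parental CHL1 libraries. CCNE1, the cyclin E that activates CDK2, was higher in every resistant library. CCNE1 had a joint log2 fold change of 1.16 ± 0.13 (SE; edgeR adjusted p = 0.000153), with 0.71 in A375 and 1.60 in CHL1. The rise was larger in CHL1 (CHL1 minus A375 0.88, edgeR adjusted p = 1.71e-05). The 20 neighbours of CCNE1 on chromosome 19 had a median change of 0.29 in A375 and 0.027 in CHL1. RB1 had 76.1, 71.0 and 73.1 CPM in resistant A375 libraries, against 119.8, 99.3 and 103 CPM in parental A375 libraries, and 92.7, 91.4 and 90.4 CPM in resistant CHL1 libraries, against 106, 108 and 104 CPM in parental CHL1 libraries. RB1, the target of CDK4 and CDK6, was lower in every resistant library. RB1 had a joint log2 fold change of -0.38 ± 0.065 (SE; edgeR adjusted p = 0.00225), with -0.55 in A375 and -0.21 in CHL1. RB1 lies on chromosome 13, and its 20 neighbours had a median change of -0.48 in A375 and -0.11 in CHL1. TFDP1, the E2F partner, is on the same chromosome and fell by 0.33, with neighbours at -0.29 in A375.

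CKS1B, a small subunit of cyclin-dependent kinases, rose by 0.26, E2F3 by 0.17 and E2F5 by 0.54, while CDK2 fell by 0.21. CDK4 had 197, 194 and 192 CPM in resistant A375 libraries, against 207, 213 and 219 CPM in parental A375 libraries, and 199, 202 and 196 CPM in resistant CHL1 libraries, against 225, 203 and 231 CPM in parental CHL1 libraries. CDK4 itself was lower in each resistant library of both lines. CDK4 had a joint log2 fold change of -0.14 ± 0.037 (SE; edgeR adjusted p = 0.0262), with -0.13 in A375 and -0.14 in CHL1. This call is weak: it was lost in 9 of 12 refits that each left out 1 library, with edgeR adjusted p up to 0.093, and kept only without A375 parental replicate 1, CHL1 resistant replicate 2 or CHL1 parental replicate 2. The other drug target did not share a direction. CDK6 had 303, 299 and 275 CPM in resistant A375 libraries, against 320.0, 335 and 278 CPM in parental A375 libraries, and 36.9, 32.0 and 41.1 CPM in resistant CHL1 libraries, against 15.1, 14.5 and 12.2 CPM in parental CHL1 libraries. CDK6 was higher in resistant CHL1, while the A375 groups overlapped. CDK6 had a joint log2 fold change of 0.59 ± 0.22 (SE; edgeR adjusted p = 0.0888), with -0.087 in A375 and 1.39 in CHL1. The lines differed by 1.48 (edgeR adjusted p = 3.55e-06). CCND1 (0.0056), CCND3 (-0.016), CCNE2 (-0.15), CDKN1B (0.10), CDKN2A (0.21) and E2F1 (-0.019) were not called, and neither were PRMT5 (0.089) and MDM4 (0.07).

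Genes of mitosis were the list with the most members called higher. Of 50 measured G2/M genes 20 were called higher (40.0%, against 6.88% of all genes) and 1 lower, and 14 of the 20 were separated in both lines. The line's own fits also called many of them, with 14 higher and 4 lower in A375 and 19 higher and none lower in CHL1. Of all genes, these fits called 13.3% higher and 14.7% lower in A375, and 9.5% higher and 11.5% lower in CHL1. The list's median log2 fold change was 0.14, against -0.0016 for all genes. BUB1B had 154, 145 and 146 CPM in resistant A375 libraries, against 122, 128 and 132 CPM in parental A375 libraries, and 148, 145 and 139 CPM in resistant CHL1 libraries, against 122, 125 and 117 CPM in parental CHL1 libraries. BUB1B is a kinase of the spindle checkpoint, and its groups did not overlap in either line. BUB1B had a joint log2 fold change of 0.23 ± 0.036 (SE; edgeR adjusted p = 0.00119), with 0.22 in A375 and 0.25 in CHL1. KIF18A had 42.0, 35.9 and 34.7 CPM in resistant A375 libraries, against 29.5, 29.7 and 29.6 CPM in parental A375 libraries, and 27.9, 27.2 and 28.0 CPM in resistant CHL1 libraries, against 23.5, 24.4 and 20.7 CPM in parental CHL1 libraries. KIF18A is a kinesin that damps chromosome movements. KIF18A had a joint log2 fold change of 0.31 ± 0.059 (SE; edgeR adjusted p = 0.00451), with 0.34 in A375 and 0.28 in CHL1. CDC25C, the phosphatase that activates CDK1, rose by 0.33, SPC25 of the kinetochore by 0.27, the ubiquitin-conjugating enzyme UBE2C by 0.21, PLK1 by 0.20, CDK1 by 0.19 and TOP2A by 0.25. The member called lower was BUB3 (-0.29), at -0.52 in A375 and -0.052 in CHL1, on a shifted stretch of chromosome 10 in A375 (neighbours at -0.56). MKI67 had 386, 312 and 311 CPM in resistant A375 libraries, against 541, 418 and 461 CPM in parental A375 libraries, and 367, 283 and 321 CPM in resistant CHL1 libraries, against 349, 344 and 304 CPM in parental CHL1 libraries. MKI67, the Ki-67 proliferation antigen, lay lower in resistant A375 and overlapped in CHL1. MKI67 had a joint log2 fold change of -0.27 ± 0.10 (SE; edgeR adjusted p = 0.0995), with -0.49 in A375 and -0.037 in CHL1. It lies on chromosome 10, with neighbours at -0.63 in A375.

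Promoters of 3 of these genes are shown for the element read by the MuvB complex, the cell cycle genes homology region or CHR (TTTGAA or TTCGAA, searched on both strands, and in capitals below). The sequences are RefSeq's, from 250 bases before to 50 after the gene's start on GRCh38.p14. They are chr15:40160819-40161118 on the plus strand for BUB1B, chr11:28108107-28108406 on the minus strand for KIF18A and chr2:168890381-168890680 on the minus strand for SPC25.
BUB1B: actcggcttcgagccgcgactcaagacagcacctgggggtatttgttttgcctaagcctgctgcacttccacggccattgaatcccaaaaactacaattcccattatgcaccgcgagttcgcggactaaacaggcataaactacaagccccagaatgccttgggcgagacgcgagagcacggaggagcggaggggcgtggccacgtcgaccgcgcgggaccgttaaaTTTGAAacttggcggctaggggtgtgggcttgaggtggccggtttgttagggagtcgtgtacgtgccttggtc
KIF18A: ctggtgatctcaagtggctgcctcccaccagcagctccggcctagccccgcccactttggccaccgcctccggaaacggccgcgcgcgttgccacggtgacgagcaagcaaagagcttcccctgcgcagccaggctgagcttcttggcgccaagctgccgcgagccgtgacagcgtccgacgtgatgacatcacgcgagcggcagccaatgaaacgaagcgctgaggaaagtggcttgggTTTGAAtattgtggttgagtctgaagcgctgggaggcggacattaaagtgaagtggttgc
SPC25: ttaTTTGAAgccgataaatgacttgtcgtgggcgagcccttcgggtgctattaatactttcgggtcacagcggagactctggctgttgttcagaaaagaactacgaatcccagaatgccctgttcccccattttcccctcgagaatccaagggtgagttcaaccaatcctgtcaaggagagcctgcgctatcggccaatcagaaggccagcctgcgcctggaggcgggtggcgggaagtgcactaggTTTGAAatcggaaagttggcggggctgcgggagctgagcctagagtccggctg
The element was in the promoters of 30 of 41 matched G2/M members (73.2%), against 16.6% of all 27305 promoters. It was in 14 of the 17 called higher (82.4%) and in 16 of the other 24 (66.7%). The CDC25C window held none.

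Of 49 measured G1/S and replication genes 7 were called higher (14.3%, against 6.88% of all genes) and none lower, and 3 of the 7 were separated in both lines. The A375 fit called 5 higher and 1 lower, where 13.3% and 14.7% of all genes were so called. The CHL1 fit called 9 higher and 4 lower, where 9.5% and 11.5% were. TYMS, the thymidylate synthase, rose by 0.23, the replisome factor WDHD1 by 0.19, RRM1 of ribonucleotide reductase by 0.14 and the flap endonuclease FEN1 by 0.15. TYMS was called in each line's own fit, and WDHD1, RRM1 and FEN1 in CHL1's only. The FEN1 call was lost in 8 of 12 refits without 1 library and kept only without A375 resistant replicate 2 or 3, A375 parental replicate 2 or CHL1 parental replicate 3.

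Among interferon response genes more were called lower than higher. Of 41 measured members 14 were called lower (34.1%, against 8.57% of all genes) and 2 higher, with a median log2 fold change of -0.14, and 9 of the 14 were separated in both lines. In its own fit A375 had 17 called lower and 3 higher, where 14.7% and 13.3% of all genes were so called. CHL1 had 11 lower and 5 higher, where 11.5% and 9.5% were. OAS3 had 77.4, 68.4 and 71.7 CPM in resistant A375 libraries, against 97.7, 88.3 and 109 CPM in parental A375 libraries, and 21.5, 22.5 and 22.6 CPM in resistant CHL1 libraries, against 47.1, 48.7 and 45.3 CPM in parental CHL1 libraries. OAS3 makes the oligoadenylates that activate RNase L, and its resistant libraries lay below the parental ones in both lines. OAS3 had a joint log2 fold change of -0.75 ± 0.10 (SE; edgeR adjusted p = 0.000618), with -0.44 in A375 and -1.08 in CHL1. HERC6 had 4.15, 4.69 and 4.95 CPM in resistant A375 libraries, against 7.52, 9.42 and 9.38 CPM in parental A375 libraries, and 0.730, 0.724 and 0.799 CPM in resistant CHL1 libraries, against 1.86, 1.82 and 1.76 CPM in parental CHL1 libraries. HERC6 was low in CHL1 in both states, but above the level of 3 counts in each library. HERC6 had a joint log2 fold change of -1.05 ± 0.11 (SE; edgeR adjusted p = 6.54e-05), with -0.93 in A375 and -1.26 in CHL1. PARP14 (-0.50), DTX3L (-0.57) and PARP9 (-0.56) are neighbours on chromosome 3, in a stretch shifted by -0.44 in CHL1 around PARP14. ISG15 (-0.56), IFI35 (-0.63), IFIT3 (-0.44), USP18 (-0.37) and OAS1 (-1.06) were also called lower. The members called higher were IFI16 (0.47), a DNA sensor, and IFI44L (1.08), which was higher in A375 and lower in CHL1 libraries. Before TMM scaling, leukocyte markers summed to 0.639 to 0.805 CPM in resistant A375, 0.34 to 0.669 CPM in parental A375, 8.85 to 9.72 CPM in resistant CHL1 and 8.96 to 9.84 CPM in parental CHL1, with PTPRC as nearly all of the CHL1 sum and CD3E at or near 0.

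The interferon-stimulated response element (GAAA, 2 bases of any kind and GAAA again, on both strands, capitals below) is shown for 3 of the lower members, from the same RefSeq windows. They are chr7:93117930-93118229 on the minus strand for SAMD9, chr3:122680589-122680888 on the plus strand for PARP14 and chr12:112938224-112938523 on the plus strand for OAS3.
SAMD9: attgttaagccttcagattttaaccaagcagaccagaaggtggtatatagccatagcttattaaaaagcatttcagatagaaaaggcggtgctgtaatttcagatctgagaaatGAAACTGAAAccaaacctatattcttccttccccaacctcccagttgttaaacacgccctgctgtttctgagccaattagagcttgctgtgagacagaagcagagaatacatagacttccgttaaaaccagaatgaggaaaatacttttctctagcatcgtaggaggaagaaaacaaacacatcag
PARP14: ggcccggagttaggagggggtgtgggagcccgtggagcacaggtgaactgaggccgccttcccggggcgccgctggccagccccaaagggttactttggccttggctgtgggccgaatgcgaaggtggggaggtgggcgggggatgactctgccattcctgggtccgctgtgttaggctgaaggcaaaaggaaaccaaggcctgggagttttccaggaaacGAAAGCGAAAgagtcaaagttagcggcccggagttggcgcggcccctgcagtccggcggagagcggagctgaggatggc
OAS3: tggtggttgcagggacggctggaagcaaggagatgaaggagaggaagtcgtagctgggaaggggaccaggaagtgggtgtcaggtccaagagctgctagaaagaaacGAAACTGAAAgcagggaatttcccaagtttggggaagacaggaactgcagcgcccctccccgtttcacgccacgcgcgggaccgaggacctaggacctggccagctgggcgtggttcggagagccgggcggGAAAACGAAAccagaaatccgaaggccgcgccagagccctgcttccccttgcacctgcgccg
It was in 21 of 33 matched members (63.6%), against 3.65% of all promoters, and in the same share of the 11 called lower (7) and of the other 22 (14). The HERC6 window held none.

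Antigen presentation by MHC class I followed the same direction. Of 17 measured genes 8 were called lower (47.1%, against 8.57% of all genes) and 1 higher, PDIA3 (0.11). PSMB8 had 19.1, 20.1 and 22.3 CPM in resistant A375 libraries, against 28.5, 29.1 and 33.7 CPM in parental A375 libraries, and 15.5, 15.3 and 15.9 CPM in resistant CHL1 libraries, against 17.9, 17.3 and 20.3 CPM in parental CHL1 libraries. PSMB8 is an immunoproteasome subunit, and it was lower in each resistant library. PSMB8 had a joint log2 fold change of -0.41 ± 0.079 (SE; edgeR adjusted p = 0.00441), with -0.57 in A375 and -0.25 in CHL1. PSMB9, its partner, fell by 0.62, the transactivator NLRC5 by 0.46, the peptide transporter subunit TAP2 by 0.25, TAPBP by 0.18, ERAP1 by 0.23 and B2M, the shared light chain, by 0.15.

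Glucose metabolism and growth factor receptors also had more lower than higher calls. In the hypoxia and glycolysis list 8 of 30 were called lower (26.7%, against 8.57% of all genes) and 1, PKM (0.18), higher. SLC2A1 had 213, 265 and 212 CPM in resistant A375 libraries, against 298, 391 and 322 CPM in parental A375 libraries, and 96.6, 96.1 and 97.5 CPM in resistant CHL1 libraries, against 150.2, 127 and 137 CPM in parental CHL1 libraries. SLC2A1 is the glucose transporter GLUT1, and no library overlapped between states within a line. SLC2A1 had a joint log2 fold change of -0.53 ± 0.074 (SE; edgeR adjusted p = 0.000614), with -0.55 in A375 and -0.51 in CHL1. TPI1 (-0.15), ENO1 (-0.16), ENO2 (-0.49), ALDOC (-0.63) and PGAM1 (-0.37), which are glycolytic enzymes, and NDRG1 (-0.47) were called lower, PGAM1 and BNIP3 (-0.44) with a called difference between the lines. ENO2 (-0.26) and NDRG1 (-0.29) were not called in CHL1's own fit, and their CHL1 libraries overlapped between states. Of 25 receptor tyrosine kinases 6 were called lower (24.0%, against the same 8.57%) and none higher. MET had 161, 192 and 159 CPM in resistant A375 libraries, against 236, 251 and 287 CPM in parental A375 libraries, and 170.1, 153 and 183 CPM in resistant CHL1 libraries, against 219, 209 and 230.2 CPM in parental CHL1 libraries. MET, the receptor of hepatocyte growth factor, was lower in each resistant library. MET had a joint log2 fold change of -0.49 ± 0.071 (SE; edgeR adjusted p = 0.000859), with -0.60 in A375 and -0.37 in CHL1. FGFR1 fell by 0.29, EPHA2 by 0.44, FGFR3 by 0.31, EPHB2 by 0.35 and the weakly expressed NTRK2 by 0.64. AXL (-0.23), a receptor of the dedifferentiated melanoma state, was not called.

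Amino acid stress genes under ATF4 had 10 of 28 members called lower (35.7%, against 8.57% of all genes) and 3 higher (10.7%, against 6.88%). Of the 10, 3 were separated in both lines, and none of the higher ones was. In its own fit A375 had 11 lower and 4 higher, where 14.7% and 13.3% of all genes were so called. CHL1 had 5 lower and 3 higher, where 11.5% and 9.5% were. Medians were -0.16 in A375 and -0.044 in CHL1, and the interaction was called for 10 members, against 23.6% of all genes. ASNS, asparagine synthetase, fell by 0.34, PCK2 by 0.41, SHMT2 by 0.18, ATF4 itself by 0.22 and STC2 by 1.82, the last with under 1 CPM in CHL1. DDIT3 (0.38), SLC7A11 (0.37) and SESN2 (0.32) were the members called higher. MITF, the master regulator of melanocytes, was lower in both lines. MITF had 32.1, 41.1 and 26.1 CPM in resistant A375 libraries, against 43.5, 43.2 and 52.0 CPM in parental A375 libraries, and 25.0, 25.4 and 26.9 CPM in resistant CHL1 libraries, against 31.5, 32.4 and 36.5 CPM in parental CHL1 libraries. MITF had a joint log2 fold change of -0.43 ± 0.095 (SE; edgeR adjusted p = 0.00986), with -0.48 in A375 and -0.37 in CHL1. Its neighbours on chromosome 3 had a median change of -0.61 in CHL1. SOX10 (-0.23) was not called.

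The extracellular matrix list had 14 of 40 members called higher (35.0%, against 6.88% of all genes) and 5 lower (12.5%, against 8.57%), and 5 of the 14 were separated in both lines. VCAN, the proteoglycan versican, rose by 1.06, and NID1 by 0.51, COL5A2 by 0.81 and COL6A1 by 0.35. LAMB2 (-0.48), FBN1 (-0.45) and SPARC (-0.26) were called lower. Several of the higher calls rested on A375. COL1A2 had 13.3, 15.4 and 13.1 CPM in resistant A375 libraries, against 0.190, 0.816 and 0.147 CPM in parental A375 libraries, and 0.0406, 0 and 0.0363 CPM in resistant CHL1 libraries, against 0.0358, 0 and 0.0399 CPM in parental CHL1 libraries. COL1A2 was below the level of 3 counts in all CHL1 libraries, so its joint call describes A375. COL6A3 was higher in A375 (1.67) and at -0.32 in CHL1, and COL8A1 was at 2.90 in A375 and -0.33 in CHL1. Beside this, also before TMM scaling, 8 fibroblast markers summed to 43.7 to 54.4 CPM in resistant A375 and 20.2 to 25.2 CPM in parental A375, and to 11.1 to 13.6 CPM in resistant CHL1 and 16.4 to 22.1 CPM in parental CHL1. LUM and COL1A2, itself a matrix gene, made most of the A375 rise, DCN was at 0.91 CPM in resistant and 1.26 CPM in parental A375, and DPT was near 0. Their part in the result was not tested.

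The joint calls of p53 targets rested on A375. Of 39 p53 target genes 10 were called higher (25.6%, against 6.88% of all genes) and none lower, but none of the 10 was separated in both lines. In its own fit A375 had 23 called higher and none lower, where 13.3% and 14.7% of all genes were so called. CHL1 had 1 higher and 8 lower, where 9.5% and 11.5% were. The interaction was called for 24 members, against 23.6% of all genes. CDKN1A had 221, 252 and 269 CPM in resistant A375 libraries, against 151, 141 and 153 CPM in parental A375 libraries, and 23.5, 28.9 and 28.7 CPM in resistant CHL1 libraries, against 27.3, 22.8 and 24.4 CPM in parental CHL1 libraries. CDKN1A, the CDK2 inhibitor p21, was higher in resistant A375 and overlapped in CHL1. CDKN1A had a joint log2 fold change of 0.45 ± 0.11 (SE; edgeR adjusted p = 0.015), with 0.74 in A375 and 0.13 in CHL1. MDM2 had 190.3, 232 and 209 CPM in resistant A375 libraries, against 123, 127 and 125 CPM in parental A375 libraries, and 86.9, 80.1 and 81.1 CPM in resistant CHL1 libraries, against 96.2, 94.0 and 87.9 CPM in parental CHL1 libraries. MDM2, the ubiquitin ligase of p53, was higher in resistant A375 and lower in resistant CHL1. MDM2 had a joint log2 fold change of 0.30 ± 0.14 (SE; edgeR adjusted p = 0.161), with 0.75 in A375 and -0.16 in CHL1. DDB2 (0.37), AEN (0.49) and PHLDA3 (0.31) were called higher with larger changes in A375. Leaving out any 1 of the 6 A375 libraries brought the p53 count to 5.

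Proteasome subunits were called more often in CHL1. Of 30 subunits 5 were called higher in the joint fit (16.7%, against 6.88% of all genes), all 5 separated in both lines, and 1, PSMD6 on chromosome 3 (-0.24), was lower. In its own fit CHL1 had 20 called higher, where 9.5% of all genes were, and A375 3, where 13.3% were. Medians were 0.25 in CHL1 and 0.0019 in A375, and the interaction was called for 21, against 23.6% of all genes. PSMC4 had 377, 374 and 372 CPM in resistant A375 libraries, against 255, 285 and 260.4 CPM in parental A375 libraries, and 201, 214 and 195 CPM in resistant CHL1 libraries, against 171, 156 and 166 CPM in parental CHL1 libraries. PSMC4, an ATPase of the regulatory particle, was higher in each resistant library of both lines. PSMC4 had a joint log2 fold change of 0.40 ± 0.047 (SE; edgeR adjusted p = 0.000181), with 0.49 in A375 and 0.31 in CHL1. Its 20 neighbours on chromosome 19 had a median change of 0.32 in A375. PSMC3 (0.28), PSMC6 (0.22), PSMD13 (0.29) and PSMD4 (0.14) were the other subunits called higher.

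**Figure D5:**
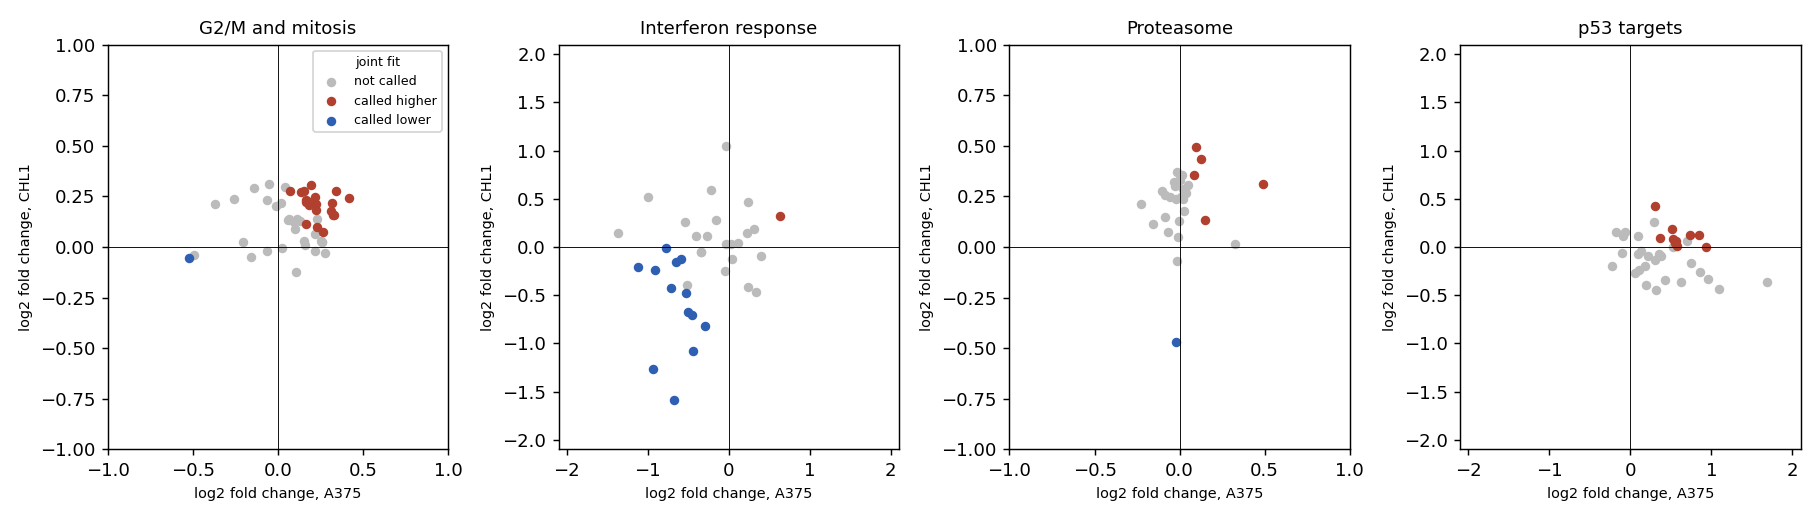
Each point is a member of the list named above the panel, at its log2 fold change (resistant over parental) in A375 on the x axis and in CHL1 on the y axis, with members called higher in the joint fit in red, lower in blue and the rest in grey. G2/M genes called higher lie in the upper right, interferon genes called lower in the lower left, while proteasome genes spread upwards along CHL1 and p53 targets to the right along A375, and axes differ between panels.

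Ribosomal protein genes had 10 of 52 members called lower (19.2%, against 8.57% of all genes) and none higher in the joint fit, and 3 of the 10 were separated in both lines. The CHL1 fit called 14 lower and none higher, where 11.5% and 9.5% of all genes were so called. The A375 fit called 9 lower and 7 higher, where 14.7% and 13.3% were. RPSA (-0.37), RPL32 (-0.25), RPL14 (-0.24), RPL24 (-0.24) and RPL15 (-0.26) lie on chromosome 3, and RPL32 had -0.42 in CHL1 and -0.073 in A375. The RPL14 call was lost without A375 resistant, CHL1 resistant or CHL1 parental replicate 3, and the RPL24 call without A375 parental replicate 2, CHL1 resistant replicate 2 or 3 or CHL1 parental replicate 3. Of 47 lysosomal genes 9 were called lower (19.1%, against 8.57%) and 4 higher (8.51%, against 6.88%), and 2 of the 9 were separated in both lines. The line fits leaned opposite ways, with 19 lower and 4 higher in A375, where 14.7% and 13.3% of all genes were so called. CHL1 had 7 lower and 12 higher, where 11.5% and 9.5% were. A difference between the lines was called for 28 of the 47, against 23.6% of all genes. FUCA1 (-0.60), NAGLU (-0.38) and GLB1 (-0.33), all glycosidases, were lower, and the calcium channel MCOLN1 (0.26) was higher. Of 25 chaperones and folding enzymes of the endoplasmic reticulum 5 were called higher (20%, against 6.88%), all 5 separated in both lines, and 3 lower (12%, against 8.57%). For this list the A375 fit called 2 higher and 6 lower, and the CHL1 fit 7 higher and 3 lower, beside the same shares of all genes. PDIA4 rose by 0.24, PDIA6 by 0.16, HSP90B1 by 0.14, CANX by 0.13 and PDIA3 by 0.11, while HERPUD1 (-0.30), CALR (-0.20) and EDEM1 were lower.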

How the data were processed

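RNA was sequenced from 12 libraries of melanoma cells, prepared with an unstranded TruSeq kit per the labels' protocols. The deposited files hold raw read counts per Ensembl gene, made by the authors with CASAVA 1.8.2, cutadapt 1.7, TopHat2, HTSeq 0.5 and limma, per the submitters' processing notes; no source used here gives the genome build and annotation. Since the counting is not stated to use strand, reads of a gene and of an antisense partner cannot be told apart.

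The 2 tables (33932 genes for A375, 32478 for CHL1) were joined on the 29735 genes they share, and symbols came from GENCODE 29 and a gene name table, with no match for 1948 IDs (1.50% of counts). The genes outside the join held 0.0364% of counts. Counts were tested with edgeR 4.0.16 in R 4.3.3 (TMM factors, filterByExpr, quasi-likelihood F-test, Benjamini-Hochberg adjustment over all genes) with cell line as block and state as effect, with an interaction term, and within each line. The scripts were tested on simulated counts. Neighbouring genes were ordered by GENCODE 29. Alternatives were DESeq2 1.42.0, limma-voom 3.58.1, other scalings, filters and joins, a replicate block and leaving out each library. The genes, lists and rules were chosen with earlier results of these data known. Genes named are the 10 small shared changes with the smallest p in each direction (at least 10 CPM, no called interaction), all shared changes of at least 2-fold with at least 5 CPM, the 5 joint-only calls with the smallest p in each direction, a panel around CDK4/6, RB and p53, and up to 4 called members of each described list, by p. Items among these that are withheld are not reported here. Other list members named with their values were chosen after these were seen. Replicates of a group differed by more than sampling noise (chi-square per gene 5.67 to 17.0), so none was counted as a duplicate.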

Additional observations from a re-analysis of the deposited data

Results flagged for a closer look

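For 26 of the genes named above, the change between states differed between the lines (edgeR interaction term, adjusted p below 0.05, as for 23.6% of all genes). Values are log2 fold changes of CHL1 minus A375. In the CDK4/6-RB axis and its inhibitors, CDK6 differed by 1.48, CCNE1 by 0.88, RB1 by 0.33, CCND3 by 0.30, CDKN1B by 0.29 and TFDP1 by 0.24, and the proliferation marker MKI67 by 0.45. Among p53 targets, MDM2 differed by -0.92, AEN by -0.73, CDKN1A by -0.61, PHLDA3 by -0.44 and DDB2 by -0.33. Among proteasome subunits, PSMD13 differed by 0.40, PSMC3 by 0.31 and PSMC6 by 0.27. The ribosomal protein genes on chromosome 3 differed by -0.36 (RPL14), -0.35 (RPL24) and -0.35 (RPL32). Among lysosomal genes, FUCA1 differed by 0.57, NAGLU by 0.46 and GLB1 by -0.41. EMC10 differed by 1.15, COL5A1 by -0.76, OAS3 by -0.64, ASNS by 0.37 and PDIA4 by 0.21.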

How the results depend on the processing

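Over normalisation, filter, join and test, the counts of called, separated and small shared genes stayed within 1.5 times, except as follows. With the average of the lines' effects in a fit with the interaction, 2161 genes were higher and 2656 lower and 16 p53 targets were called. Without genes in shifted neighbourhoods, an alternative chosen after seeing the data, 1051 genes were lower, 462 separated and lower and 349 small and lower. With the replicate block there were 654 higher and 864 lower genes, 390 separated higher, 305 small higher, 12 called in neither line, 9 interferon genes lower, 3 p53 targets and 862 genes opposite in the lines. Genes called in the same direction in both lines rose beside these, from 645 to 948, which stayed within 1.5 times. Among the genes named above the block ended the calls of SSRP1, RTRAF, INTS4, CYB5B, GSPT1, KDM6B, UHMK1, RPL35P1, CDK4, FEN1, RRM1, CDKN1A, AEN, PHLDA3, PSMC6, PSMD13, RPL14, RPL24, RPL32, NAGLU and GLB1. Whether replicate numbers pair the samples is not settled. Same-numbered libraries correlated at 0.54, 0.55 and -0.02 in A375 and at 0.32, -0.04 and 0.21 in CHL1. A375 resistant replicate 1 was at -0.49 with parental replicate 2, and resistant replicate 2 at -0.61 with parental replicate 1. Some libraries, but not every one, correlated best with their own number. Leaving out each library gave 966 to 1306 higher, 1096 to 1502 lower, 592 to 757 separated higher, 647 to 821 separated lower, 462 to 605 small higher and 494 to 640 small lower genes. It gave 136 to 182 genes called in neither line, 3760 to 4519 interaction calls, 16 to 22 G2/M, 10 to 16 interferon and 5 to 11 p53 members, and 479 to 609 same-direction and 397 to 536 opposite calls in the line fits. Genes without a call turned sign: CCND1 was -0.0018 with limma-voom and -0.0044, -0.033, -0.012 and -0.020 without 1 library, E2F1 0.021, 0.012 and 0.10, and CCND3 0.030, 0.0064, 0.026 and 0.020; without each library in turn they ran from -0.033 to 0.073 for CCND1, from -0.077 to 0.10 for E2F1 and from -0.052 to 0.030 for CCND3. Of 106 named genes 24 lost their call in some setting. No setting moved the median of all genes by 0.1 on the log2 scale. With 3 libraries a group and 1 derivative a line, changes common to resistance cannot be told apart from those of these 2 derivatives.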

Other observations

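Further gene groups are given as counts of joint calls, against 6.88% of all genes called higher and 8.57% called lower. Of 38 nuclear-encoded respiratory chain genes 1 was called higher (2.63%) and 5 lower (13.2%), and of 13 mitochondrially encoded mRNAs none was called in the joint edgeR fit and 2 had an unadjusted p below 0.05, with a median log2 fold change of 0.20 in A375 and -0.058 in CHL1. Of 18 NRF2 targets, which answer oxidative stress, 5 were called higher (27.8%) and 1 lower (5.56%). Of 15 YAP/TAZ targets 3 were called lower (20%) and none higher, and of 23 genes of cholesterol synthesis and uptake likewise 3 (13.0%) and none. The spliceosome core had 3 of 36 called higher (8.33%) and 1 lower (2.78%), the BCL2 family and apoptosis list 1 of 22 lower (4.55%), and PRMT5 and its relatives and partners 1 of 15 lower (6.67%). Genes of the dedifferentiated melanoma state had 1 of 17 called in each direction (5.88%), and pigment cell genes 3 of 15 lower (20%).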
